A study of Mus musculus with 4 samples.

Results

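The solute carrier genes (symbols that begin with Slc and a digit) are described here by the MyoD binding peaks assigned to them in cultured mouse muscle cells. Members were chosen by symbol alone from every gene paired with a peak, which gave 118 Slc genes of 7235 genes. They belonged to 36 of the 51 Slc families that the RefSeq gene table of mouse build GRCm38.p6 lists. Of these 118 members, Slc9a3r1 is not a transporter but a scaffold protein that binds sodium-proton exchangers, and it was kept under the rule in a class of its own.

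MyoD was immunoprecipitated from primary myotubes, multinucleate muscle cells formed by fusion of cultured myoblasts. The myoblasts came from C57BL/6 mice 2 weeks old and were differentiated for 5 days in low serum, and the myotubes then spent 24 h in the same medium with or without pyruvate. No genetic change, and no agent other than pyruvate, separates the groups. There were 4 samples, 1 ChIP library and 1 input per condition, and 1 peak list per ChIP library. How many mice gave the cells is not given in the sources used here.

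Solute carriers are membrane proteins that move nutrients, ions and metabolites across the cell surface and the membranes of organelles, most of them as facilitated carriers or by coupling to a sodium or proton gradient. Muscle fibres depend on them for insulin-stimulated glucose uptake, for lactate and pyruvate exchange, for amino acid supply and for the removal of calcium after contraction, while the Slc25 carriers connect the cytosol with the mitochondrial matrix. MyoD is a basic helix-loop-helix transcription factor of the muscle lineage that binds short DNA elements called E-boxes, with the letters CANNTG.

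The list labelled with pyruvate held 11907 peaks and the one labelled without held 19338, a ratio of 1.62, and the conditions rest on the sample titles alone. With 1 library per condition there is no replicate check, so no difference below was tested, and intervals on shares (95%, exact Clopper-Pearson) cover counting error only. Read depth is unknown, and absence from a list can mean binding below detection. In a culture, binding in fewer cells and weaker binding per cell cannot be told apart. Of 8 skeletal muscle genes checked, 8 had a peak in the with-pyruvate list and 7 in the other, where Ckm (muscle creatine kinase) had none. Of 6 fibroblast genes 1 and 4 had a peak, and of 5 macrophage symbols 1 and 2. Among all protein-coding genes the shares were 17.8% with pyruvate and 24.5% without. Binding gives no level of a cell type, and the part of other cells in the results was not tested.

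Most Slc genes with a peak had one either in both lists or in the longer list alone. Of the 118, 60 were in both lists (50.8%, 41.5 to 60.2), 49 only in the list labelled without pyruvate (41.5%, 32.5 to 51.0) and 9 only in the list labelled with it (7.63%, 3.55 to 14.0). Over all genes of the files the same shares were 55.1%, 35.0% and 9.95%, so the Slc shares were near those of all genes. When the longer list was limited to its widest peaks, as many as the shorter list holds, 23 Slc genes were only without pyruvate and 18 only with. The number of distinct Slc peaks was 121 with pyruvate and 195 without, a ratio of 1.61, next to 1.62 over all peaks. Among 375 protein-coding Slc genes in RefSeq, 122 had a peak (32.5%, 27.8 to 37.5), against 27.1% of all 21900 protein-coding genes. Those 122 include 4 genes that the files list under another symbol and that are not members here: Slc23a4, Slc25a51, Slc49a4 and Slc66a2.

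**Figure D1:**
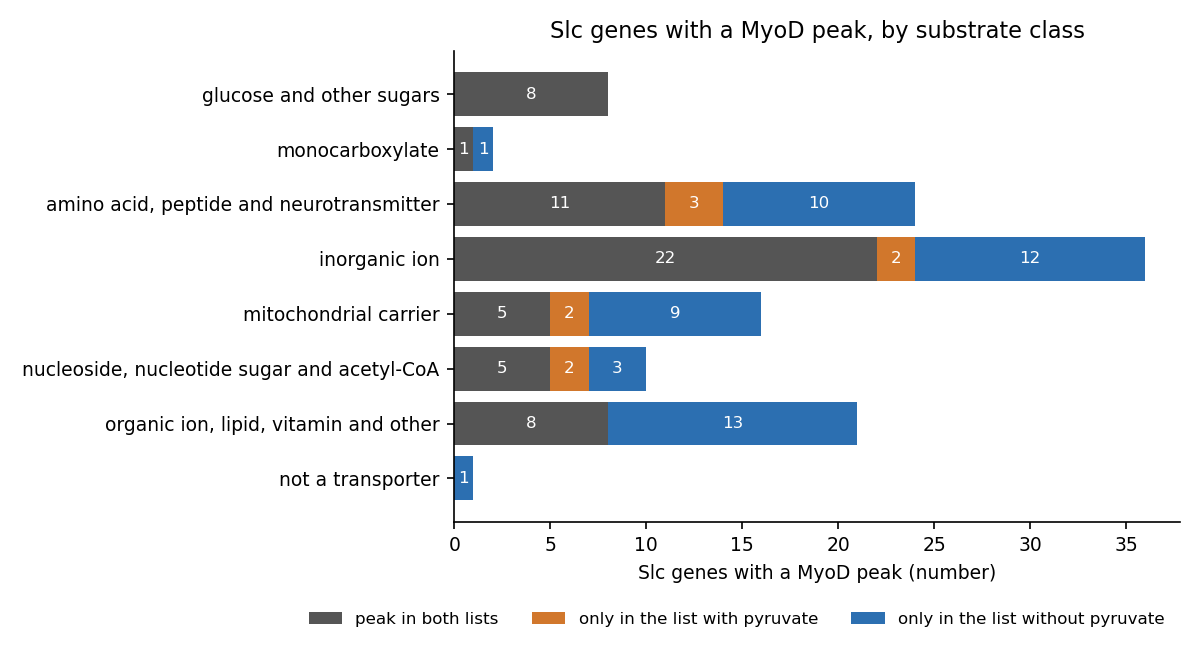
Number of Slc genes with a MyoD peak (x axis) in each substrate class (y axis), divided into genes with a peak in both lists, only with pyruvate and only without. All 8 sugar transporters lie in both lists, and the 36 inorganic ion transporters form the largest class.

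The sugar transporters were the class in which each gene with a peak had one in both lists, next to 55.1% of all genes of the files. The same held for each gene with a peak in the families Slc8, Slc22 and Slc37 of other classes. Sugar transporters numbered 8 genes, with 11 peaks in the with-pyruvate list and 16 in the other, and 10 peaks of each overlapped. They make up 32.0% (14.9 to 53.5) of the 25 sugar transporter genes in RefSeq, against 27.1% of all protein-coding genes. Slc2a4 encodes GLUT4, the insulin-responsive glucose transporter of muscle and fat. Its peak spanned chr11:69762133-69762519 with pyruvate (386 bases, the widest of the class in that list) and chr11:69762245-69762498 without (253 bases). Both lie in a 2000-base flank of Slc2a4 whose side, upstream or downstream, the files do not show, and both are also paired with a gene listed only by its identifier, ENSMUSG00000084251. Slc2a1 encodes GLUT1, the basal glucose transporter. It had 1 overlapping peak in each list, 25.3 and 25.2 kb into the gene, of 169 bases with pyruvate and 231 without, which is also paired with a gene listed only by identifier.

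Slc2a3, which encodes the high-affinity glucose transporter GLUT3, had 1 peak with pyruvate and 3 without. The overlapping peaks of Slc2a3 measured 177 and 166 bases, and the 2 further peaks of the without-pyruvate list 233 and 300. Slc2a5 encodes the fructose transporter GLUT5, and its shared peak began 1.02 kb and 0.991 kb after the start site, 169 and 229 bases wide. Each list held another Slc2a5 peak that the other lacked. Slc2a9, a urate transporter, had the most peaks of the class, 3 with pyruvate and 5 without, and all 3 were shared. The sodium-coupled transporters Slc5a2 and Slc5a10, known mainly from kidney, and the inositol transporter Slc2a13 (chosen after its values were seen) completed the class. Slc5a2 peaks were 285 and 324 bases wide. The shared Slc5a10 peak measured 206 and 185 bases, and that of Slc2a13 198 and 214. Slc2a12, a further hexose transporter, and Slc5a3, the sodium-coupled inositol transporter, had no peak in either list.

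The monocarboxylate transporters are the family that carries pyruvate and lactate through the plasma membrane. Of 16 such genes in RefSeq, 2 had a peak (12.5%, 1.55 to 38.3), an interval that holds both the 27.1% of all protein-coding genes and the 32.5% of all Slc genes. Neither is a classical pyruvate or lactate carrier: Slc16a10 encodes TAT1, which carries aromatic amino acids, and Slc16a9 encodes MCT9. The Slc16a10 peak lay in the gene body at chr10:39789084-39789371 with pyruvate (287 bases) and at chr10:39789101-39789323 without (222 bases). Slc16a9 had 1 peak of 151 bases, 11.5 kb into the gene, only in the without-pyruvate list. No peak was paired with Slc16a1, Slc16a3 or Slc16a7, which encode the lactate and pyruvate carriers MCT1, MCT4 and MCT2.

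Other genes of pyruvate, lactate and glucose handling were read from a list of 38 symbols, which includes older and newer names of the same genes. Of these symbols 12 had a peak in both lists, 1 only with pyruvate, 5 only without and 20 in neither. The 20 include Mpc2, whose older symbol Brp44 had a peak. Of all protein-coding genes 27.1% had a peak. Among all genes with a peak, 55.1% were in both lists, 9.95% only with pyruvate and 35.0% only without. Bsg, which encodes basigin, the chaperone of MCT1 and MCT4, had a promoter-proximal peak of 246 bases only in the without-pyruvate list. Of the other chaperone genes listed, Nptn had 1 peak of 230 bases, also only without pyruvate, and Emb had none. Brp44, an older symbol of the mitochondrial pyruvate carrier subunit Mpc2, carried a promoter-proximal peak in each list, 319 and 310 bases wide. Brp44l and Mpc1, symbols of the other subunit of this carrier, had no peak in either list. The lactate dehydrogenase genes Ldha and Ldhb had none. Of 16 symbols for GLUT4 vesicles and their control, 6 had a peak in both lists, 1 only with pyruvate, 2 only without and 7 in neither. Tbc1d1, a Rab GTPase-activating protein that restrains these vesicles, had 4 peaks with pyruvate, all shared, and 8 without. The kinase gene Akt2 had 4 and 2 peaks, the insulin receptor gene Insr 2 and 1, and Rab10, a GTPase of GLUT4 vesicles, 1 proximal peak only with pyruvate. Tbc1d4, the relative of Tbc1d1, had 2 and 3 peaks, Lnpep, an aminopeptidase of these vesicles, 1 and 3, Aspscr1, a GLUT4 tether, 1 and 1, and the membrane fusion gene Stx4a and Trip10 each 1 only without pyruvate. Both hexokinase genes, Hk1 with 2 and 2 peaks and Hk2 with 2 and 4, were in both lists.

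Amino acid, peptide and neurotransmitter transporters numbered 24, with 20 peaks with pyruvate and 30 without, of which 16 were shared. Of these genes 11 were in both lists, 3 only with pyruvate and 10 only without, next to 55.1%, 9.95% and 35.0% of all genes. Slc7a2, which encodes the cationic amino acid transporter CAT2, had the widest peak of any Slc gene in each list. Its wider peak spanned chr8:41981730-41982534 with pyruvate (804 bases) and chr8:41981803-41982522 without (719 bases), and its second peak, 238 and 230 bases, was also shared. Slc7a5 encodes LAT1, the transporter of leucine and other large neutral amino acids. It had 3 peaks in each list, all shared, of 251, 314 and 412 bases with pyruvate and 235, 258 and 308 without. They lay 5.52 to 9.31 kb into the gene and are also paired with the long gene model Gm20388. No peak was paired with Slc3a2, which encodes the LAT1 partner subunit CD98.

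Slc7a1, the gene of the arginine and lysine transporter CAT1, was 1 of 2 members with a peak in both lists that overlapped the window from 250 bases before to 50 bases after the start site. The start-site peak spanned chr5:149211286-149211499 with pyruvate (213 bases, from 19 bases before the start site to 194 after it) and chr5:149211294-149211456 without (162 bases, from 24 to 186 bases after it), so 144 and 136 bases of these peaks lay past the window. A second shared peak of Slc7a1, 618 and 489 bases wide, lay in the gene body, and another of 337 bases was in the with-pyruvate list alone. The RefSeq promoter of Slc7a1 is shown because a peak of each list overlaps the end of its window. It covers chr5:148399855-148400154 of GRCm38.p6 on the minus strand, and capitals mark each CANNTG.

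Slc7a1: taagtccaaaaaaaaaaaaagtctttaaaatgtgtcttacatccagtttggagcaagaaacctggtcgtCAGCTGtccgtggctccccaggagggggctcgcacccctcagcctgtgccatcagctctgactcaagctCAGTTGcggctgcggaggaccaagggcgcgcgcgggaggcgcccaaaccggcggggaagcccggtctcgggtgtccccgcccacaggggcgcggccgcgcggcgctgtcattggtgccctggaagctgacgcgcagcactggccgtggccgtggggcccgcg

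This promoter holds CAGCTG 181 bases before the start and CAGTTG 112 bases before it. Measured from the start site, both lie upstream of the peaks, which began 19 bases before the start with pyruvate and 24 bases after it without. A second RefSeq start of Slc7a1 has neither. The peaks are in mm9 and the sequence in GRCm38.p6, and positions were not converted between them. The gene spans 72495 bases in both the files and RefSeq. A match of letters is a description and not a measured binding site: CANNTG occurs in 72.3% of 32851 mouse promoters of this length and in 74.2% of 372 promoters of Slc genes, and CAGCTG, which is contained in CANNTG, in 16.3% and 19.1%. Both motifs read the same on either strand.

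The system A transporter genes Slc38a1 and Slc38a2 lie 44.5 kb apart on chromosome 15. Slc38a2, which encodes SNAT2, the amino acid-responsive transporter, had 1 peak of 198 bases only in the without-pyruvate list. Slc38a1 (SNAT1) had 1 shared body peak, 298 and 204 bases, and 2 peaks only without pyruvate, of which the 219-base peak began 1.06 kb from the start site. Slc38a4 had 1 and 2 peaks, the shared pair measuring 369 and 402 bases, and Slc38a6 2 and 3 peaks. The 3 genes with a peak only in the with-pyruvate list were Slc6a19 (322 bases), a neutral amino acid transporter of gut and kidney, Slc38a9 (242 bases), the lysosomal arginine sensor, and Slc43a1 (207 bases), which encodes LAT3. Among those with a peak only without pyruvate were Slc1a6, a glutamate transporter (294 bases), Slc38a7 (228 bases), the vesicular monoamine transporter gene Slc18a1 (225 bases) and Slc7a14 (210 bases). Slc17a4 had a shared peak, 285 and 251 bases, in a flank of unknown side. The glutamine transporter gene Slc1a5, the taurine transporter gene Slc6a6 and the creatine transporter gene Slc6a8 had no peak.

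Inorganic ion transporters were the largest class, 36 genes with 52 peaks with pyruvate and 77 without, of which 35 were shared. They make up 40.0% (29.8 to 50.9) of 90 such genes in RefSeq, against 27.1% of all protein-coding genes. The median body of these members was 68.4 kb, against 47.6 kb over all Slc members. Longer genes more often had a peak, and the part of gene length in this share was not tested. Of the 36, 22 were in both lists, 2 only with pyruvate and 12 only without, next to 55.1%, 9.95% and 35.0% of all genes. The Slc8 sodium-calcium exchangers extrude calcium from muscle cells, and the 2 members with an Slc8 symbol in the files were both in both lists. Families here follow the symbols of the files, and 2 of all members matched RefSeq only by an older symbol. Slc8a1 (NCX1) had 5 peaks with pyruvate and 4 without, all of the latter shared, and its widest peak, 483 and 465 bases, lay at chr17:81953511-81953994 with pyruvate. Slc8a3 (NCX3), an isoform known from skeletal muscle and brain, had 3 peaks in each list, 2 of them shared. The unshared Slc8a3 peak of the with-pyruvate list lay 109 bases away from the closest without-pyruvate peak. The potassium-dependent exchanger genes Slc24a3 and Slc24a4 had 4 and 7 peaks and 2 and 3 peaks. Slc24a2, chosen after its values were seen, had 1 peak, only without pyruvate.

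Slc9a9, the gene of the endosomal sodium-proton exchanger NHE9, had the most peaks of any member. It spans 561 kb, the longest body among the members, and held 5 peaks with pyruvate, all shared, and 9 without. Among them were 2 near the start site in each list, the first 985 and 956 bases upstream (169 and 226 bases) and the other 332 and 387 bases downstream (400 and 360 bases). Per 100 kb of gene body Slc9a9 held 0.892 and 1.61 peaks, next to 0.877 and 1.37 over all members of 100 kb or more. Slc9a4 had a peak of 327 bases only with pyruvate.

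**Figure D2:**
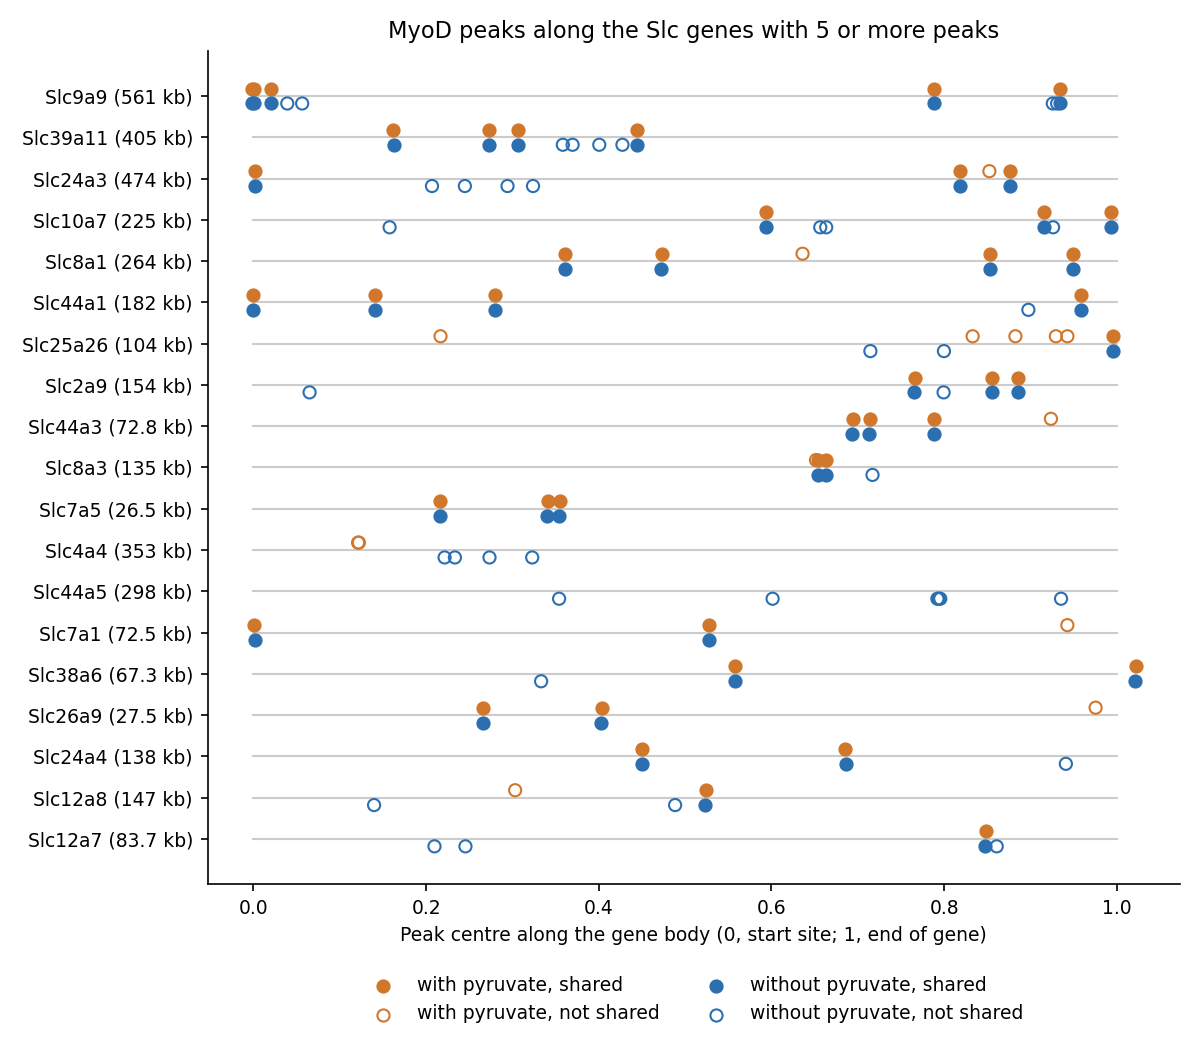
Centre of each peak along the gene body (x axis, 0 at the start site and 1 at the gene end) for the 19 Slc genes with 5 or more peaks over both lists (y axis, with gene length in kb). Filled markers are peaks shared between lists and open markers are not. Slc9a9 holds 5 and 9 peaks, Slc25a26 6 and 3, and Slc44a5 none and 6.

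Several members carry zinc and other metal ions. Slc39a11 (ZIP11) had 4 peaks with pyruvate, all shared, and 8 without over its 405 kb, or 0.987 and 1.97 per 100 kb, and the widest measured 232 and 311 bases. Slc39a13 (ZIP13), a zinc transporter of the secretory pathway, had 3 peaks with pyruvate and 1 without, of which 1 was shared at 423 and 321 bases. The 2 unshared Slc39a13 peaks lay 375 and 538 bases from the other list's peak, and each peak of this gene is also paired with the proteasome gene Psmc3. Slc30a7 (ZnT7) had 1 shared peak that measured 342 bases with pyruvate and 563 without. The shared peak of Slc11a2 (DMT1), the iron importer, measured 416 and 503 bases. Slc30a2 had a peak of 207 bases in a flank of unknown side only with pyruvate, and Slc30a4 had a proximal peak of 191 bases only without. No peak was paired with Slc30a10 or Slc39a14, which carry manganese.

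For chloride, phosphate and bicarbonate the pattern was mixed. Slc12a2 (NKCC1), the sodium-potassium-chloride cotransporter, had a peak in each list, 0.941 and 0.962 kb inside the gene and 179 and 175 bases wide. The sodium-phosphate cotransporter genes Slc20a1 (PiT1) and Slc20a2 (PiT2) had 2 peaks and 1 peak, all only in the without-pyruvate list. Slc20a1 peaks were 255 and 292 bases and that of Slc20a2 171. Slc41a2, a magnesium transporter gene, and Slc26a2, a sulfate transporter gene, each had a peak only without pyruvate in a flank of unknown side, 292 and 250 bases wide. In both lists but with no overlapping peak were 3 Slc genes, chosen after their values were seen: the bicarbonate transporter genes Slc4a3, with 2 and 1 peaks, and Slc4a4, with 2 and 4, and the organic ion transporter gene Slc22a23, with 1 and 3. Of 11 symbols for sodium and calcium pumps and their subunits, 3 had a peak in both lists, 1 only without pyruvate and 7 in neither. A peak in either list was found at 27.1% of all protein-coding genes. Atp2a1, the calcium pump of fast muscle reticulum, had 3 peaks with pyruvate and 2 without. The plasma membrane calcium pump genes Atp2b4 and Atp2b1 had 2 and 4 peaks and 0 and 4.

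Mitochondrial carriers numbered 16, with 13 peaks with pyruvate and 18 without, of which 6 in each list overlapped. Of the 16, 5 were in both lists, 2 only with pyruvate and 9 only without, next to 55.1%, 9.95% and 35.0% of all genes. Slc25a26, the carrier of S-adenosylmethionine, had more peaks with pyruvate than without, 6 against 3. A single pair overlapped, at chr6:94554037-94554402 with pyruvate (365 bases) and chr6:94553965-94554418 without (453 bases), and it is also paired with Lrig1. The other 5 with-pyruvate peaks of Slc25a26 measured 172 to 328 bases. Slc25a37, which encodes the iron importer mitoferrin-1, had 2 peaks in each list, all shared, of 174 and 184 bases with pyruvate and 242 and 205 without. Slc25a24, an ATP-magnesium/phosphate carrier, had 1 shared body peak of 238 and 315 bases.

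Near start sites or in flanks of unknown side, 2 mitochondrial carriers had a peak in both lists, 2 only with pyruvate and 4 only without, next to 18.8%, 5.90% and 17.6% of all genes. Slc25a32, which carries folate or flavin, had a shared flank peak of 267 and 292 bases that is also paired with Dcaf13. The glutamate carrier gene Slc25a18 had one of 198 and 288 bases that is also paired with Cecr2. Slc25a25, another ATP-magnesium/phosphate carrier, had a flank peak of 187 bases, and Slc25a39, the glutathione carrier, one of 200 bases, both only with pyruvate. Slc25a29, a basic amino acid carrier, had a proximal peak of 221 bases, 1.42 kb from the start site, only without pyruvate. Slc25a21 and Slc25a47 had body peaks of 302 and 282 bases only in that list. In RefSeq, 17 of 47 mitochondrial carrier genes had a peak (36.2%, 22.7 to 51.5), against 27.1% of all protein-coding genes. Among those with no peak in either list were Slc25a4, the ADP/ATP carrier of muscle, Slc25a3, the phosphate carrier, Slc25a12, the aspartate/glutamate carrier, and Slc25a20, the acylcarnitine carrier. Slc25a10, the dicarboxylate carrier (chosen after its values were seen), had a proximal peak of 176 bases only without pyruvate.

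Nucleoside, nucleotide sugar and sugar phosphate transporters had few peaks, 8 with pyruvate and 9 without in 10 genes, of which 6 were shared. Their number differed least between lists of the classes with more than 2 genes, by a ratio of 1.12. Slc35e4 had 2 shared peaks, 1 of them 0.619 and 0.573 kb from the start site. Slc37a2, a sugar phosphate exchanger, had a shared proximal peak of 264 and 251 bases, and Slc29a1, the nucleoside transporter ENT1, a shared body peak of 170 and 166 bases. Only with pyruvate were Slc35f1 (293 bases) and Slc35b4 (169 bases, 44 bases inside the gene). Slc35d1 (235 bases), Slc35b3 (221 bases) and Slc35e2 (160 bases) had a peak only without pyruvate.

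Organic ion, lipid and vitamin transporters differed most in number between the lists, 16 peaks with pyruvate against 42 without, a ratio of 2.62 in 21 genes. Of the 16 with-pyruvate peaks 14 were shared. Of the 21 genes 8 were in both lists, 13 only without pyruvate and none only with, next to 55.1%, 35.0% and 9.95% of all genes of the files. The choline transporter-like family, Slc44, had a peak at each of its 5 members in RefSeq, against 27.1% of all protein-coding genes. The smaller families Slc14 and Slc20, of 2 genes each, and Slc48, of 1, also had a peak at each gene. Of protein-coding genes of 100 kb or more, 65.5% had a peak, and the part of gene length here was not tested. Slc44a1 (CTL1), the choline transporter, had 4 peaks with pyruvate, all shared, and 5 without. Slc44a2 had a shared peak of 421 and 417 bases in a flank of unknown side, which ran 155 and 150 bases past the edge of that flank. Slc44a3 had 4 and 3 peaks, and the widest measured 544 and 509 bases. Slc44a5 had no peak with pyruvate and 6 without, the widest of 662 and 524 bases. Slc10a7, a family member linked to calcium handling and skeletal growth, had 3 peaks with pyruvate, all shared, and 7 without.

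Slc44a1 was the other member with a peak on the start-site window in both lists, and both peaks covered the start site itself. They spanned chr4:53453159-53453396 with pyruvate (237 bases) and chr4:53453128-53453393 without (265 bases). The RefSeq promoter of Slc44a1, shown for that reason, covers chr4:53440163-53440462 of GRCm38.p6 on the plus strand, with CANNTG in capitals.

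Slc44a1: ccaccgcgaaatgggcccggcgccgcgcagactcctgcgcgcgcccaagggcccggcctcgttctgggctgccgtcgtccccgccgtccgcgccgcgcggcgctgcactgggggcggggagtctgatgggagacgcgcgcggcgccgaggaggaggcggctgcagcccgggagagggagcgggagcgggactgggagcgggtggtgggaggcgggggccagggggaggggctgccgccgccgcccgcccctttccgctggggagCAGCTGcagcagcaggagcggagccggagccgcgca

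Its single CANNTG is a CAGCTG that begins 14 bases after the start. Measured from the start site, the peaks ran from 126 bases before to 111 after with pyruvate and from 157 before to 108 after without. The gene body spans 182066 bases in the files and 182092 in RefSeq. In 1 list alone, 4 more members had a peak on this window, without pyruvate Slc22a23, Slc39a3 and Slc9a3r1 and with pyruvate Slc35b4. Slc22a23 and Slc39a3 were chosen after their values were seen. The Slc9a3r1 peak, 247 bases wide, covered the start site and is also paired with Rab37.

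The fatty acid transporter family Slc27 had peaks at 3 of its 6 genes in RefSeq, each with 1 peak, and all 3 were only in the without-pyruvate list. Among all genes with a peak in the files, 35.0% had peaks only in that list, a share that leaves out genes with no peak. In the families Slc1, Slc13, Slc14 and Slc20, too, both genes with a peak had peaks only in that list. Slc27a1 (FATP1), the fatty acid transporter of muscle, had 1 of 160 bases, Slc27a2 1 of 237 and Slc27a3, chosen after its values were seen, 1 of 203 in a flank of unknown side. The sulfate transporter gene Slc13a1 had a body peak of 449 bases, and the urea transporter gene Slc14a2 a peak of 417 bases in a flank of unknown side, both only without pyruvate. No peak was paired with Slc22a5, the carnitine transporter gene.

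Overlap between the lists followed that of all peaks. Of Slc peaks 88 of 121 with pyruvate (72.7%, 63.9 to 80.4) and 88 of 195 without (45.1%, 38.0 to 52.4) overlapped a peak of the other list by at least 1 base, against 71.8% and 44.2% of all peaks. Of the 60 genes in both lists, 44 had each of their with-pyruvate peaks shared, and 28 had each peak of both lists shared. The same number of peaks in each list was found at 30 genes, more without pyruvate at 20 and more with pyruvate at 10. By class the shared part of the with-pyruvate peaks ran, in classes of more than 2 genes, from 46.2% (19.2 to 74.9) at mitochondrial carriers to 90.9% (58.7 to 99.8) at sugar transporters, and these intervals overlap. Slc25a26 held 5 of the 7 unshared mitochondrial carrier peaks of that list, and without it the share was 71.4% (29.0 to 96.3), a setting chosen after seeing the data, which leaves inorganic ion transporters lowest at 67.3%.

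Peak width, the only measure per peak that the files hold, was similar in the lists. The median of Slc peaks was 245 bases with pyruvate (quartiles 204 and 309, range 169 to 804) and 232 without (196.5 and 290, 144 to 719). All peaks had medians of 250 and 241. The narrowest of all peaks measured 169 bases with pyruvate and 144 without, so any peak under 169 bases is in the without-pyruvate list. Among these are the only peaks of Slc16a9, Slc27a1 and Slc35e2. Shared Slc peaks were wider than unshared ones, with medians of 253 against 224 bases with pyruvate and 258.5 against 216 without, as were shared peaks among all, 265 against 218 and 289 against 212. In the 88 overlapping pairs, the peak was wider without pyruvate in 47 (53.4%, 42.5 to 64.1) and with pyruvate in 41, while over all 8592 pairs 61.2% were wider without. The median log2 ratio of widths, without over with, was 0.04 in Slc pairs and 0.11 in all pairs. Centres of the Slc pairs lay a median of 20 bases apart and at most 98.5.

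**Figure D3:**
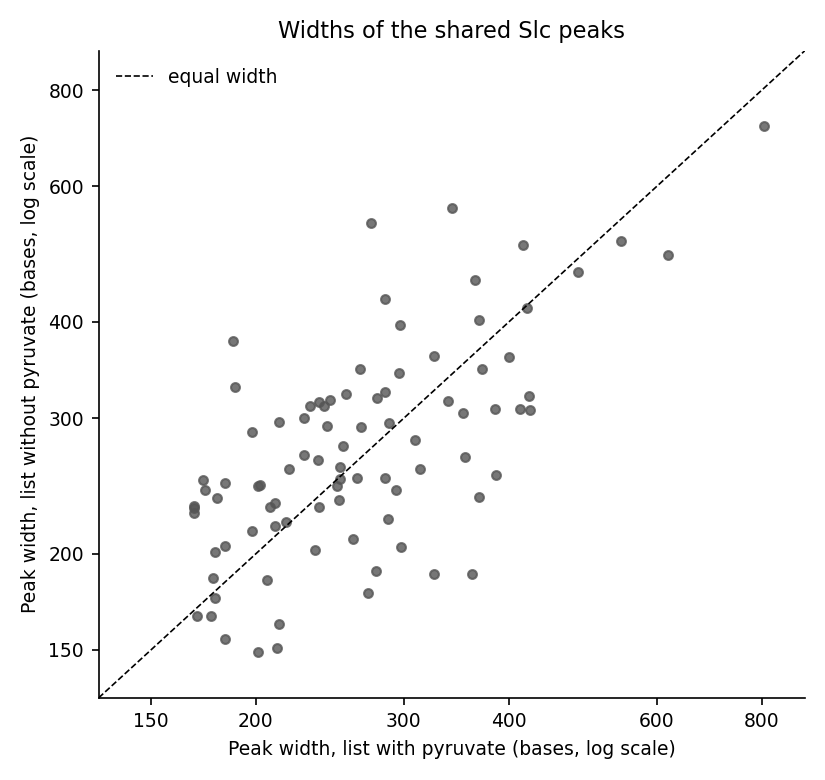
Width of each of the 88 overlapping Slc peak pairs, with pyruvate (x axis, bases, log scale) against without (y axis, bases, log scale), 1 point per pair. The points lie on both sides of the line of equal width, 47 wider without pyruvate and 41 wider with, and the pair of 804 and 719 bases is that of Slc7a2.

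Most Slc peaks lay inside genes and far from the start site. A peak was counted as promoter-proximal when its nearest edge was within 2 kb of the start site, or when it lay in a flank of unknown side. Of Slc peaks 18 of 121 with pyruvate (14.9%, 9.06 to 22.5) and 38 of 195 without (19.5%, 14.2 to 25.8) were promoter-proximal, against 23.2% and 22.4% for all peak and gene pairs. Of those, 8 and 15 were in flanks of unknown side. Gene bodies held 99 and 153 Slc peaks (81.8% and 78.5%, against 74.6% and 75.7% of all peak and gene pairs), and the flank past the gene end 4 and 4. Whether a body peak is exonic or intronic is not shown by the files. The median distance from a located start site was 40.5 kb (quartiles 10.3 and 94.7) with pyruvate and 36.5 kb (8.83 and 99.4) without, and over all genes 30.0 and 32.8 kb.

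**Figure D4:**
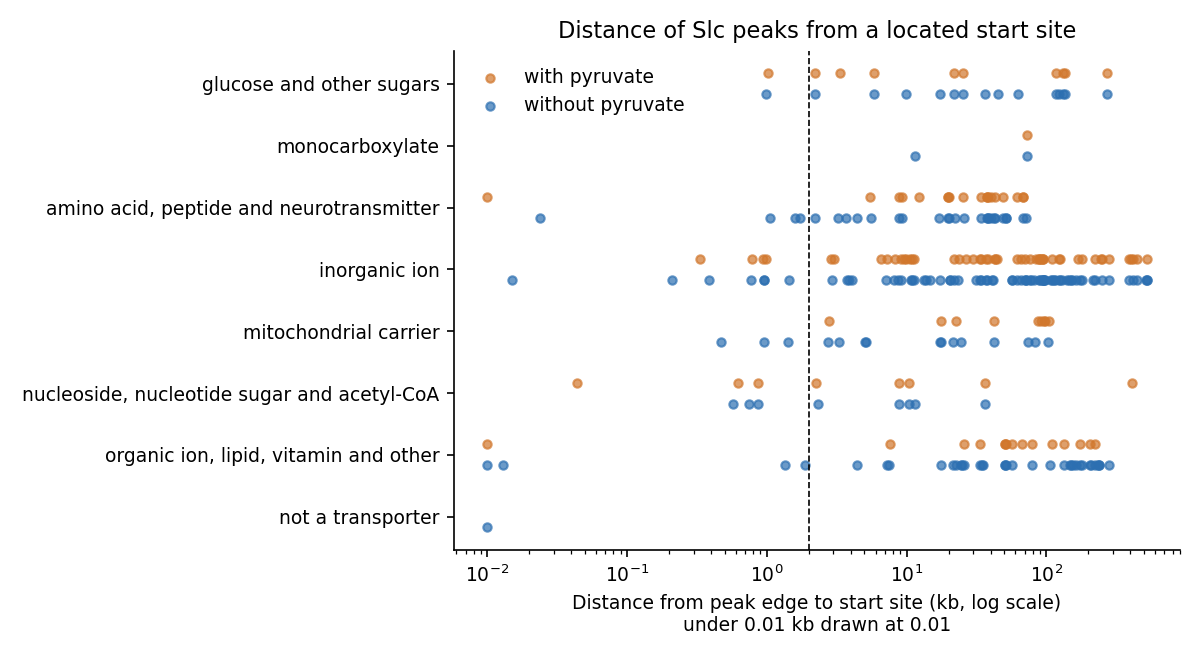
Distance of each Slc peak from its gene's located start site (x axis, kb, log scale, with distances under 0.01 kb drawn at 0.01) by substrate class (y axis), coloured by list. The dashed line marks 2 kb, and most points of both lists lie to its right, with medians of 40.5 and 36.5 kb.

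Counted by gene, 13 Slc genes carried promoter-proximal peaks in both lists (11.0%, 6.00 to 18.1), 24 only without pyruvate (20.3%, 13.5 to 28.7) and 4 only with (3.39%, 0.931 to 8.45). Over all genes the shares were 18.8%, 17.6% and 5.90%. The 13 were Slc2a4 and Slc2a5 for sugars, Slc7a1 and Slc17a4 for amino acids and organic anions, Slc9a9, Slc12a2 and Slc24a3 for ions, Slc25a18 and Slc25a32 in mitochondria, Slc35e4 and Slc37a2 of the nucleotide sugar and sugar phosphate families, and Slc44a1 and Slc44a2 for choline. For 5 of these, Slc2a4, Slc17a4, Slc25a18, Slc25a32 and Slc44a2, the side of the flank is unknown, and with located start sites alone the numbers were 8 in both lists, 1 only with pyruvate and 14 only without. The 4 with a proximal peak only with pyruvate were Slc25a25, Slc25a39, Slc30a2 and Slc35b4.

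Longer Slc genes more often had a peak. Of RefSeq Slc genes under 20 kb 28 of 127 had one (22.0%, 15.2 to 30.3), from 20 to 50 kb 26.5% of 147, from 50 to 100 kb 48.4% of 64, and at 100 kb or more 64.9% (47.5 to 79.8) of 37. Among all protein-coding genes the same bins gave 13.9%, 30.5%, 45.5% and 65.5%. Slc genes in both lists had a median body of 68.1 kb, those only with pyruvate 37.8 and those only without 35.8, over the 100 members with a body in the files. A single peak in all was found at 52 members, and 5 or more at 19. Of the 49 genes only in the without-pyruvate list 43 rested on 1 peak, as did each of the 9 only in the other.

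**Figure D5:**
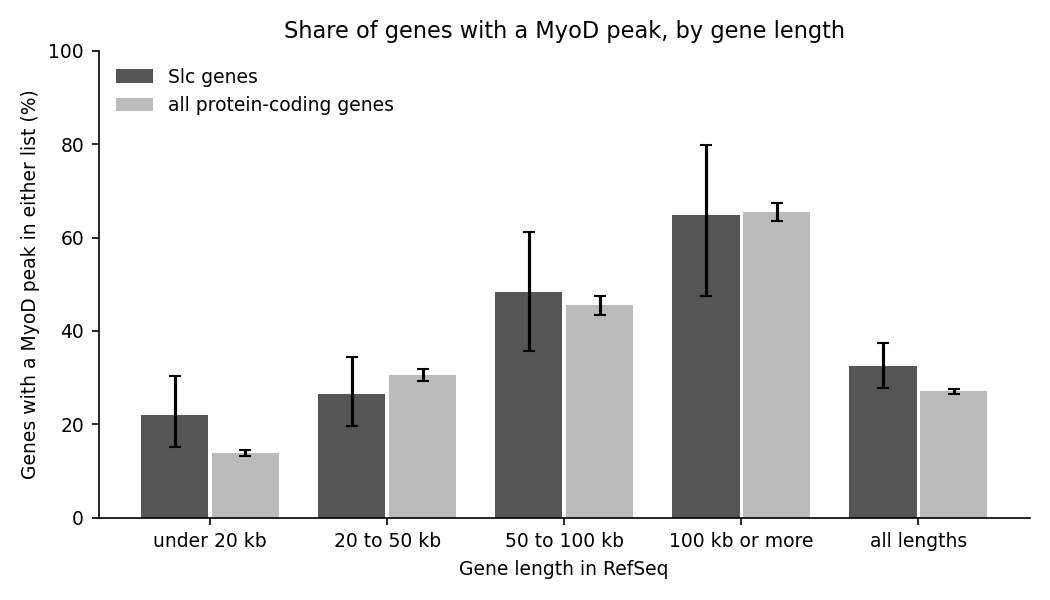
Share of RefSeq genes with a MyoD peak in either list (y axis, percent) by gene length (x axis, bins in kb and all lengths) for Slc genes and for all protein-coding genes, with error bars giving the 95% exact interval. Slc genes run from 22.0% under 20 kb to 64.9% at 100 kb or more, and all protein-coding genes from 13.9% to 65.5%.

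Of 27 Slco and Abc transporter genes 12 had a peak in both lists, 6 only with pyruvate and 9 only without. Of 30 Kcn potassium channel genes these numbers were 11, 6 and 13. Over all genes of the files 55.1% were in both lists, 9.95% only with pyruvate and 35.0% only without. The 9 of 118 Slc genes found only with pyruvate (7.63%, 3.55 to 14.0) were near the share of all genes. Both other sets had a larger part of their genes there, and no difference was tested. Some Slc genes lie next to each other. Slc25a29 and Slc25a47, 15.2 kb apart, both had peaks only without pyruvate. Slc9a4, with a peak only with pyruvate, lies 51.0 kb from Slc9a2 (chosen after its values were seen), which was in both lists.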

How the data were processed

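MyoD ChIP-seq peaks of 2 libraries were analysed, 1 for myotubes labelled with pyruvate and 1 without, grouped by sample title. An abbreviation in the deposited names can be read as the opposite condition. Per the submitters' processing notes, the tools were MACS2 2.1.1, Bowtie2 2.1.0 and bcl2fastq 2.19, with build mm9. The sources used here do not give calling thresholds or the use of the inputs, which were not analysed here. The deposited lists pair peaks with gene bodies and 2000-base flanks, per the file headers and values. A gene was given for 7452 of 11907 peaks with pyruvate (62.6%) and 11381 of 19338 without (58.9%). The remaining peaks were assigned to no gene, so a gene with no paired peak can still have binding farther away. Their fold enrichment column holds 0 in each row with a number, so width (end minus start) was the only value per peak. Width varies with binding, read depth and fragment length.

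From the rows (13076 with pyruvate, 20902 without), distinct peaks were taken and genes pooled by symbol. Start sites came from the longest listed body and its strand. Shared peaks overlapped by at least 1 base. Substrate classes followed the Slc family number, with exceptions by symbol. RefSeq GRCm38.p6 gave names, lengths and promoters only. Python 3.11.15 and scipy 1.17.1 were used, and the overlap code was tested on simulated peaks. No p-value was computed. Members and lists were chosen with earlier results of these data known. The text names 32 genes whatever their values, then in each class those with the most peaks, the widest peak, a proximal peak in both lists or a peak in 1 list. Some of these are not reported here by name. Alternatives covered peak width, list length, start-site window, overlap rule and genes left out.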

Additional observations from a re-analysis of the deposited data

How the results depend on the processing

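Of 52 alternative values, 17 were counted as moved and 35 were not, but not all of the 35 stayed close to the values reported. They include a rise from 24 to 35 genes with a proximal peak only without pyruvate under the 10-kb window. They also include the shared part of the with-pyruvate mitochondrial carrier peaks, 46.2% with Slc25a26 and 71.4% without it. With peaks of at least 250 bases alone, 31 Slc genes had a peak in both lists and 18 only without pyruvate, promoter-proximal peaks were in both lists at 6, only with pyruvate at 0 and only without at 5, and 61.7% of with-pyruvate Slc peaks were shared (66.5% of all peaks). When the longer list was limited to its widest peaks, as many as the shorter list holds, 18 Slc genes were only with pyruvate and 23 only without, so the excess without pyruvate narrowed from 49 against 9. Over all genes it turned, to 1320 only with and 1219 only without. Promoter-proximal peaks were then only with pyruvate at 8 and only without at 11, and 56.2% and 56.7% of Slc peaks were shared (58.5% and 58.3% of all peaks). A window of 10 kb put a proximal peak in both lists at 22 genes. Located start sites alone gave 8 in both lists, 1 only with and 14 only without. Without peaks also paired with another gene, an alternative chosen after seeing the data, 8 had one in both lists. Width limits and the gene exclusion keep fewer peaks, and the cause was not tested further. The lists differ in length, depth is unknown and each condition has 1 library, so a gene in 1 list alone is not shown to differ between conditions. No paired analysis was possible because each condition has 1 ChIP library.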
